A study of Mus musculus with 6 samples.

Results

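The receptors and receptor-activated Smads through which bone morphogenetic proteins (BMPs) and TGF-beta act were read in surface ectoderm (SE) and in neural ectoderm (NE) of the mouse embryo. The set comprised 10 genes, the type I receptors Bmpr1a, Bmpr1b, Acvr1 and Tgfbr1, the type II receptors Bmpr2, Acvr2a, Acvr2b and Tgfbr2, and the BMP-activated Smads Smad1 and Smad5. They are 10 of 19057 genes named by the platform annotation, and they were read from all 30 probes, of 45281 on the array, whose symbol in that annotation is one of them. Wild-type CD-1 embryos of embryonic day (E) 8.5 were treated with pancreatin and trypsin, and the SE and the NE at the forebrain level were then separated with needles. Both tissues came from untreated embryos of the same strain and stage, 3 SE arrays and 3 NE arrays were hybridized, and each array held RNA from 1 pool of many embryos rather than from a single animal. The study asked which signalling pathways and transcription factors distinguish the SE from the NE while the neural tube closes.

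A dimeric ligand of this family brings together type I and type II receptors, which are serine/threonine kinases of the cell surface. The type II receptor phosphorylates the type I receptor, which in turn phosphorylates a receptor-activated Smad. Smad1, Smad5 and Smad9 carry BMP signals and Smad2 and Smad3 carry TGF-beta, activin and nodal signals, in each case to the nucleus together with the shared partner Smad4. In vertebrate embryos BMP signalling is known to favour epidermal over neural fate in the ectoderm, and both tissues read here arise from that layer.

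Of the receptor and Smad genes 2 passed the test, in opposite directions. On 5 of the 17 probes that could be tested the SE and NE arrays did not overlap, beside 51.0% of all probes tested. Tgfbr2, the type II receptor that binds TGF-beta, was 2.01-fold higher in the SE at its brightest probe. Acvr2b, a type II receptor for activins, nodal and some BMPs, was 1.49-fold higher in the NE. Of these 17 probes, 2 (11.8%) were called, while 37.3% of all 19590 probes tested were called in the same comparison. The call higher in the SE was 1 of 17, beside 17.1% of all probes, and the call higher in the NE was 1 of 17, beside 20.2% of all probes. A probe was tested where 3 or more of the 6 arrays gave it a detection p below 0.05, and called means an adjusted p under 0.05 in limma after Benjamini-Hochberg adjustment over all probes tested. The median log2 difference, SE minus NE, was -0.05 over the 17 probes and -0.02 over all probes, and the median size of the difference was 0.17 against 0.22. Signals are background-corrected, quantile-normalized log2 intensities with 16 added before the logarithm, so that a probe with no signal lies just above 4 and fold changes of dim probes are understated. They rank arrays for 1 probe and do not rank genes, since probes differ in how well they hybridize.

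**Figure D1:**
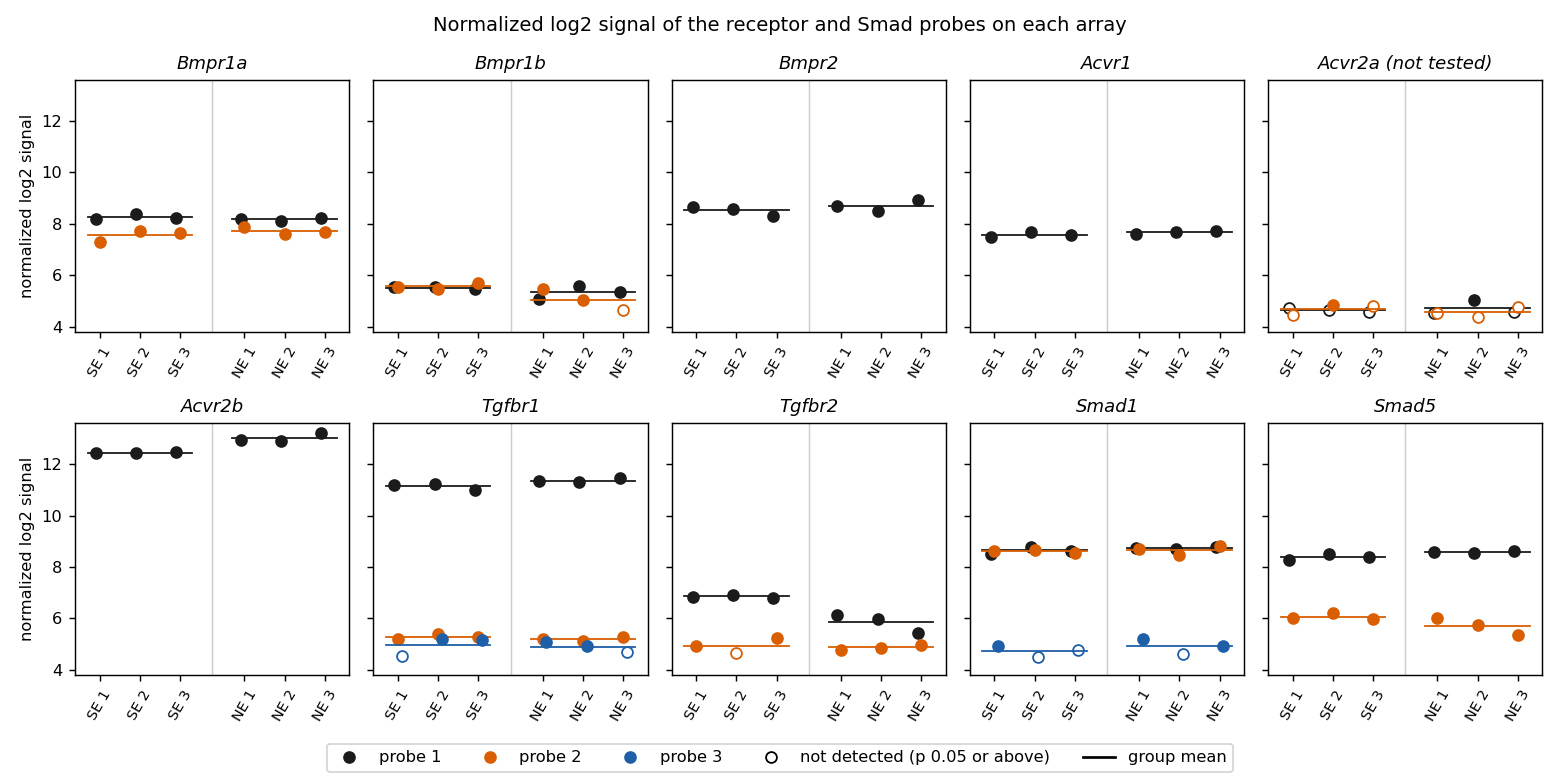
Normalized log2 signal (vertical axis) on each of the 3 SE and 3 NE arrays (horizontal axis) for every tested probe of the 10 genes and for both untested Acvr2a probes. Black, orange and blue points are a gene's probes 1, 2 and 3, numbered by mean log2 signal, hollow points had a detection p of 0.05 or above, and horizontal lines are group means; Acvr2b lay between 12.43 and 12.46 in the SE and between 12.91 and 13.21 in the NE, and Tgfbr2 probe 1 between 6.79 and 6.92 in the SE and between 5.42 and 6.15 in the NE.

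The 2 called genes both lie on chromosome 9, and the stretch upstream of each start site is printed here because these are the members that differed, one in each direction. The sequences are the 250 bases before the RefSeq transcription start on the strand of the gene (RefSeq, GRCm38.p6), chr9:119401928-119402177 on the + strand for Acvr2b and chr9:116175364-116175613 on the - strand for Tgfbr2. Capitals mark the core letters of the Smad-binding element, CAGAC or its reverse complement GTCTG.
Acvr2b: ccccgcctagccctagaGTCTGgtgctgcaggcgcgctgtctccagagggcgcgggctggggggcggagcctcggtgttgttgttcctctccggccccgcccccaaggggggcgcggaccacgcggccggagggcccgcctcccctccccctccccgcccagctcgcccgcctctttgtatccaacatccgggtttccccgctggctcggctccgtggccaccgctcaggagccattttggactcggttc
Tgfbr2: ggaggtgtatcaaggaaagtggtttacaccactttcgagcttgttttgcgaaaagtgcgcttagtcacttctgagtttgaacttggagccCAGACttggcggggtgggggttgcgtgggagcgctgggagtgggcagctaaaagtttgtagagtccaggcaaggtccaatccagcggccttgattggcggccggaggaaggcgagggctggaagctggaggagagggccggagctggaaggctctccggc
The Acvr2b window held 24 CpG dinucleotides and 72.8% G and C, and 88.0% of the 32851 mouse promoter windows of this length held fewer CpGs. The Tgfbr2 window held 12 CpGs and 58.4% G and C, and 66.5% of windows held fewer. Searched on both strands, GGGCGG (the GC box) occurred 3 times in the Acvr2b window and 0 times in the Tgfbr2 window, and 32.7% of all windows held it. CAGAC occurred 1 time in each, 233 bases before the Acvr2b start and 160 bases before the Tgfbr2 start, and 42.2% of all windows held it. Neither window held the letters GGCGCC (a GC-rich Smad site, in 9.59% of windows) or TATAAA (12.4% of windows). These letter matches describe the sequence and were not set against binding data.

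Detection limited what could be read for several members. A detection p under 0.05 was reached on all 6 arrays by 13 of the 30 probes (43.3%), on 3 to 5 arrays by 4 (13.3%), on 1 or 2 arrays by 3 and on no array by 10 (33.3%). Over the whole array 35.4% of probes were detected on all 6 arrays and 48.8% on none. The 13 probes that were not tested belong to Bmpr1b (2), Bmpr2 (3), Acvr1 (1), Acvr2a (2), Tgfbr1 (1), Tgfbr2 (2) and Smad1 (2), and no fold is given for them. Of the 10 genes, 9 had at least 1 tested probe, and Acvr2a had none. For probes 2, 3 and 4 of Bmpr2 the signal stayed between 4.24 and 4.69 on the SE arrays and between 4.27 and 4.55 on the NE arrays, below the lowest detected signal of any array, 4.79. Bmpr2 probe 1 was detected on all 6, so the levels of Bmpr2 below rest on 1 of its 4 probes.

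**Figure D2:**
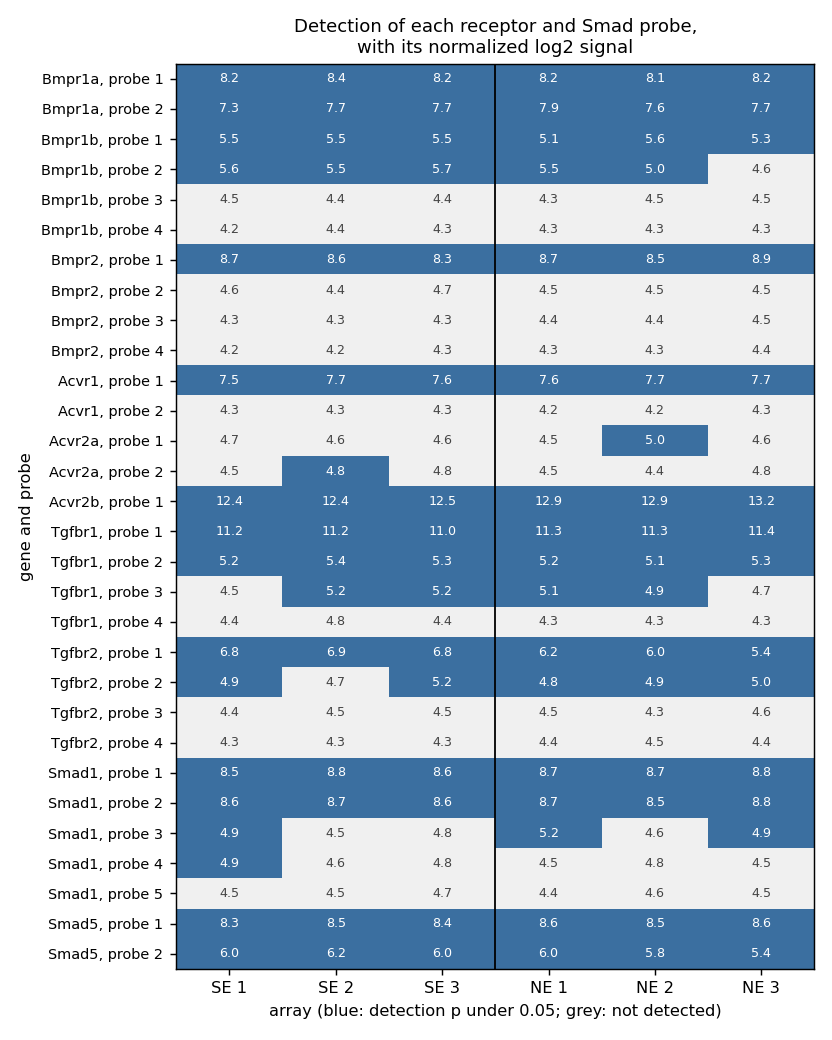
Detection of all 30 probes (rows, by gene and probe number) on the 3 SE and 3 NE arrays (columns). Blue cells have a detection p under 0.05 and grey cells do not, the number in each cell is the normalized log2 signal, and 13 rows are blue throughout while 10 are grey throughout.

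Among the type I receptors no tested probe was called by limma, and 2 probes, Bmpr1b probe 2 and Tgfbr1 probe 1, had an unadjusted p under 0.05. Bmpr1a, a main type I receptor for BMP2 and BMP4, gave probe 1 signals of 8.20, 8.38 and 8.21 on SE arrays 1, 2 and 3, against 8.20, 8.11 and 8.23 on NE arrays 1, 2 and 3. These ranges overlapped, and the difference was 0.08 (95% confidence interval -0.11 to 0.28, adjusted p = 0.478 in limma), an interval that lay within 1.25-fold in both directions. Bmpr1a probe 2 read 7.29, 7.72 and 7.66 in the SE, against 7.86, 7.61 and 7.67 in the NE, with a difference of -0.16 (-0.46 to 0.15, adjusted p = 0.391), so that the 2 probes of Bmpr1a pointed in opposite directions, both inside the spread between arrays.

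Bmpr1b, the paralogue of Bmpr1a known for its role in cartilage condensation in the limb, was dim. Bmpr1b probe 1 gave 5.54, 5.53 and 5.48 in the SE, against 5.08, 5.57 and 5.34 in the NE, a difference of 0.19 (-0.10 to 0.47, adjusted p = 0.270). Bmpr1b probe 2 gave 5.56, 5.48 and 5.68 in the SE, against 5.47, 5.03 and 4.64 in the NE, where NE array 3 was not detected. On probe 2 every SE array lay above every NE array, and the mean difference of 0.53 ± 0.191 (standard error) had an interval of 0.08 to 0.97. It did not pass the test (adjusted p = 0.0643 in limma). The NE arrays spread far more than the SE arrays on this probe, with an SD of 0.416 in the NE and 0.0986 in the SE (n = 3 each). When the 2 tested probes of Bmpr1b were averaged, the gene was called higher in the SE by 0.36 (adjusted p = 0.0209).

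Acvr1, a type I receptor used mainly by BMP6 and BMP7, lay within a narrow band. Its probe 1 gave 7.50, 7.68 and 7.57 in the SE, against 7.62, 7.67 and 7.71 in the NE, a difference of -0.09 (-0.27 to 0.10, adjusted p = 0.440). The SE and NE ranges overlapped, and an SE to NE difference beyond 1.25-fold in either direction lay outside this interval.

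Tgfbr1, the type I receptor that pairs with Tgfbr2 in binding TGF-beta, had 3 tested probes. Probe 1 gave 11.17, 11.23 and 10.98 in the SE, against 11.34, 11.29 and 11.45 in the NE. All NE arrays were above all SE arrays, but by little, and the difference of -0.23 ± 0.0926 (1.17-fold higher in the NE, interval -0.45 to -0.02) had an adjusted p of 0.0882. Tgfbr1 probe 2 read 5.19, 5.41 and 5.26 in the SE, against 5.19, 5.14 and 5.26 in the NE, with a difference of 0.09 (-0.11 to 0.29, adjusted p = 0.450). Probe 3, near the detection limit and detected on 2 arrays of each tissue, gave 4.55, 5.20 and 5.15 in the SE, against 5.08, 4.94 and 4.69 in the NE (difference 0.06, adjusted p = 0.821). The dim probes did not share the direction of probe 1. On the log2 scale the interval of probe 2 reached down to -0.11, short of the -0.23 of probe 1, while that of probe 3 reached down to -0.37. The constant added before the logarithm compresses the differences of dim probes such as probes 2 and 3. These intervals therefore cannot decide whether the probes differ in their underlying fold.

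Among the type II receptors, Acvr2b and Tgfbr2 were called, Bmpr2 was not, and Acvr2a could not be tested. Of all genes tested, at the brightest probe, 18.7% were called higher in the SE and 21.6% higher in the NE. Acvr2b was read by a single probe (ILMN_1230145). Its deposited, uncorrected signals were 5533, 5631 and 5277 on SE arrays 1 to 3, against 8038, 8043 and 9626 on NE arrays 1 to 3. After normalization these were 12.43, 12.45 and 12.46 in the SE, against 12.94, 12.91 and 13.21 in the NE. The SE arrays agreed within 0.03 of each other, the NE arrays were all higher, and NE array 3 was the highest. The mean was 12.45 ± 0.0169 in the SE and 13.02 ± 0.160 in the NE (SD, n = 3 each), a difference of -0.57 ± 0.0952 (interval -0.79 to -0.35, adjusted p = 0.00264 in limma). Without NE array 3 the difference was -0.48 (adjusted p = 0.00483), and under all 13 alternative settings it lay between -0.63 and -0.48 and remained called.

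Acvr2a, the paralogue of Acvr2b, could not be tested. Its probe 1 read 4.73, 4.64 and 4.58 in the SE, against 4.55, 5.02 and 4.56 in the NE, and it was detected only on NE array 2. Its probe 2 read 4.46, 4.84 and 4.81 in the SE, against 4.52, 4.38 and 4.76 in the NE, and it was detected only on SE array 2. Both probes sat at the floor of the measurement in both tissues, so a difference in Acvr2a was not detectable here.

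Bmpr2, the type II receptor that binds BMPs, read 8.67, 8.58 and 8.29 on its detected probe in the SE, against 8.69, 8.49 and 8.91 in the NE. The ranges overlapped, with means of 8.52 ± 0.199 in the SE and 8.70 ± 0.209 in the NE (SD, n = 3 each). The difference of -0.18 (interval -0.50 to 0.14, adjusted p = 0.347) had an interval within 1.5-fold in both directions.

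Tgfbr2 probe 1 (ILMN_2760979) showed the largest difference of any tested member probe. Its deposited signals were 155.3, 162.4 and 144.0 on SE arrays 1 to 3, against 111.1, 105.1 and 87.55 on NE arrays 1 to 3, before any subtraction of the background. Normalized, the probe read 6.85, 6.92 and 6.79 in the SE, against 6.15, 5.98 and 5.42 in the NE. All arrays were detected and the groups did not overlap, and the SE arrays were again the tighter group. The means were 6.86 ± 0.0641 in the SE and 5.85 ± 0.383 in the NE (SD, n = 3 each), a difference of 1.00 ± 0.176 (interval 0.59 to 1.41, adjusted p = 0.00335 in limma). The size depended on the background correction, since without it the difference was 0.58 (adjusted p = 2.18e-04), and the call held under all 13 alternatives, with the difference between 0.58 and 1.16. Tgfbr2 probe 2, which the annotation ties to another transcript record, was dim and gave 4.93, 4.65 and 5.23 in the SE, against 4.79, 4.87 and 4.98 in the NE. On that probe the groups overlapped and the difference was 0.05 (-0.29 to 0.39, adjusted p = 0.812), so only 1 of the 4 Tgfbr2 probes carried the call. Averaged over its 2 tested probes, Tgfbr2 was higher in the SE by 0.53 (adjusted p = 0.00438 in limma).

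**Figure D3:**
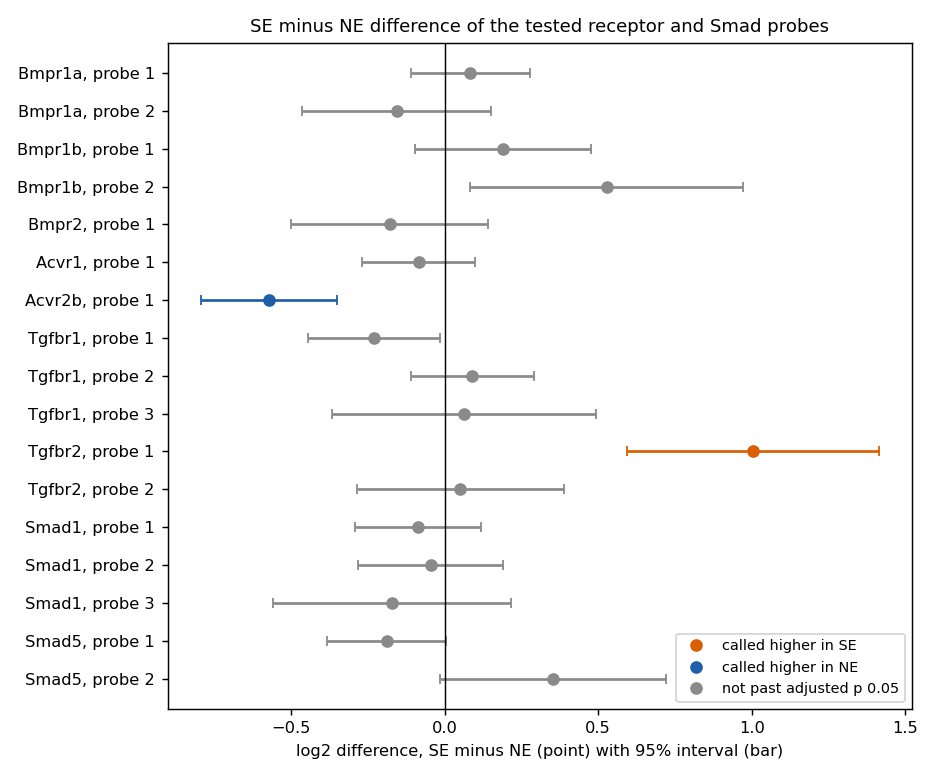
Log2 difference, SE minus NE (horizontal axis), of the 17 tested probes (rows), with its 95% confidence interval from limma as a bar. Orange marks the probe called higher in the SE (Tgfbr2 probe 1, 1.00), blue the probe called higher in the NE (Acvr2b, -0.57), and grey the 15 probes that did not pass.

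No probe of the BMP-activated Smads was called by limma, and 0 had an unadjusted p under 0.05. Smad1 probe 1 gave 8.52, 8.78 and 8.64 in the SE, against 8.73, 8.69 and 8.77 in the NE, a difference of -0.09 (-0.29 to 0.12, adjusted p = 0.486). Smad1 probe 2 gave 8.64, 8.67 and 8.56 in the SE, against 8.71, 8.48 and 8.81 in the NE, a difference of -0.05 (-0.28 to 0.19, adjusted p = 0.759). These 2 probes gave the same picture, with overlapping groups. Smad1 probe 3 was dim, with 4.93, 4.52 and 4.77 in the SE, against 5.21, 4.61 and 4.91 in the NE, and a difference of -0.17 (-0.56 to 0.22, adjusted p = 0.459).

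Smad5, which acts alongside Smad1, had 2 probes that leaned in opposite directions. Smad5 probe 1 gave 8.27, 8.49 and 8.40 in the SE, against 8.59, 8.53 and 8.61 in the NE. Every NE array was above every SE array, and the difference was -0.19 ± 0.0836 (-0.38 to 0.01, adjusted p = 0.115). Smad5 probe 2 gave 6.02, 6.21 and 5.96 in the SE, against 6.01, 5.75 and 5.37 in the NE, a difference of 0.35 (-0.02 to 0.72, adjusted p = 0.121). Neither passed the test, and the 2 probes did not settle a direction for the gene, whose mean over both probes differed by 0.08.

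Of the 17 tested probes, 5 had groups that did not overlap, the 2 called probes and Bmpr1b probe 2, Tgfbr1 probe 1 and Smad5 probe 1, while 51.0% of all probes tested had groups that did not overlap. Of the 15 probes that did not pass, 7 differed above 0 and 8 below 0. On the normalized log2 scale the intervals of 5 of the 15 lay within 1.25-fold in both directions, 13 within 1.5-fold and all 15 within 2-fold. For the dim probes, such as Smad1 probe 3, Tgfbr1 probes 2 and 3, Tgfbr2 probe 2 and those of Bmpr1b, the 16 added before the logarithm compresses differences, so that these intervals do not bound the underlying fold. Bmpr1a, Tgfbr1 and Smad5 each had tested probes of opposite sign, and no gene had probes called in opposite directions.

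Related genes were also set against each other within each array, as the log2 ratio of their brightest tested probes, which asks whether their SE to NE differences are unequal and says nothing of which gene is more abundant. Tgfbr1 over Tgfbr2 was 4.32, 4.31 and 4.19 in the SE, against 5.19, 5.31 and 6.03 in the NE. All NE arrays were higher, and the ratio differed by -1.23, or 2.35-fold (exact two-sided permutation p = 0.1, the smallest that 3 against 3 arrays allow, and 0.15 after adjustment over 3 pairs). Smad1 over Smad5 was 0.24, 0.28 and 0.24 in the SE, against 0.14, 0.16 and 0.16 in the NE, a non-overlapping but small shift of 0.10, or 1.07-fold (exact permutation p = 0.1, adjusted 0.15). Smad5 probe 2, not used here, differed by 0.35, opposite to the -0.19 of probe 1, so this shift rests on the choice of Smad5 probe. Bmpr1a over Bmpr1b was 2.66, 2.84 and 2.73 in the SE, against 3.13, 2.54 and 2.88 in the NE, and the groups overlapped (difference -0.11, exact permutation p = 0.6). The design could not reach 0.05 for any of these ratios, and the pair of Acvr2a and Acvr2b was left out because Acvr2a was not tested.

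The rest of the pathway was read from lists of its ligands, antagonists, co-receptors, Smads and targets, with 1 value a gene from its brightest tested probe. At that level 18.7% of all 10603 genes tested were called higher in the SE and 21.6% higher in the NE. Of the 9 receptor and Smad genes with a tested probe, 1 was called higher in the SE and 1 higher in the NE, with a median difference of -0.09 beside -0.02 for all genes. Where 0 genes of a list were called in a direction, 0 also had an unadjusted limma p under 0.05 in it.

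Upstream of the receptors, 8 of 17 BMP and GDF ligand genes were tested, and 5 were called higher in the SE and 2 higher in the NE, with a median difference of 0.86. Bmp4, read at 9.50, 9.33 and 9.66 in the SE, against 6.59, 6.56 and 6.70 in the NE, was 7.34-fold higher in the SE (adjusted p = 9.46e-07, tested probes from 1.75 to 2.88), and Bmp7 was 3.23-fold higher (adjusted p = 1.53e-05). Gdf10, a divergent family member, gave 6.95, 5.58 and 5.78 in the SE, against 8.60, 8.90 and 8.75 in the NE, and was 6.25-fold higher in the NE (adjusted p = 5.3e-04). Bmp2, undetected throughout the NE, was higher in the SE by at least 1.69-fold (adjusted p = 2.67e-04). Fold bounds of this kind set the mean of the brighter tissue against the lowest detected signal of each array of the other tissue, or the probe's own signal where that is higher. They allow for the floor and not for the spread between arrays, so they are not the lower limit of a confidence interval. Bmp2 and Bmp8b (at least 1.26-fold) were detected on all 3 SE arrays and on no NE array. They entered the test only through the SE, so their direction was set by the filter, and they are part of the 5 and of the median. The count of ligands higher in the SE was 3 rather than 5, with these genes untested, without any 1 of the SE arrays and where detection on all 6 arrays was required.

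Of the 9 genes for TGF-beta, activin and nodal ligands, 3 were tested, with 0 called higher in the SE and 1 higher in the NE, and a median of -0.06. Tgfb2, a ligand of the receptor pair Tgfbr1 and Tgfbr2, gave 5.30, 5.44 and 5.17 in the SE, against 6.16, 6.20 and 6.07 in the NE, and was 1.79-fold higher in the NE (adjusted p = 3.16e-04). Its direction was opposite to that of Tgfbr2 probe 1. Probes for Tgfb1, Tgfb3, Inhba, Nodal and Lefty2 were detected on no array.

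Extracellular antagonists had 8 of 15 genes tested, 3 called higher in the SE and 2 higher in the NE, with a median of -0.02. Sostdc1, a secreted inhibitor of BMP and Wnt signals, was 31.1-fold higher in the SE (adjusted p = 4.8e-07), with 10.09, 9.92 and 9.96 in the SE, against 4.73, 5.04 and 5.33 in the NE, where 2 arrays were detected. Nbl1, which binds BMPs, was 3.92-fold higher in the SE (adjusted p = 4.77e-06) against an NE signal near the floor that was detected on 1 array, and Bmper 2.34-fold (adjusted p = 8.02e-05). Grem1, another BMP antagonist, was 2.18-fold higher in the NE (adjusted p = 4.21e-04). The count of antagonists higher in the NE was 1 rather than 2 without SE array 1, SE array 2, NE array 1 or NE array 2, and that higher in the SE was 1 rather than 3 with detection required on all 6 arrays. Noggin, encoded by Nog, read 5.58, 5.75 and 5.92 in the SE, against 5.69, 5.92 and 5.60 in the NE (difference 0.01, interval -0.27 to 0.29).

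Beside the receptors, 5 of 12 other receptors and co-receptors were tested, 1 higher in the SE and 2 higher in the NE, with a median of -0.05. Tgfbr3, the co-receptor betaglycan that presents TGF-beta ligands to Tgfbr2, gave 6.27, 6.16 and 6.26 in the SE, against 5.53, 5.59 and 5.64 in the NE, and was 1.56-fold higher in the SE (adjusted p = 4.4e-04). Rgma, a BMP co-receptor, gave 7.71, 7.93 and 7.90 in the SE, against 9.45, 9.32 and 9.53 in the NE, and was 3.00-fold higher in the NE (adjusted p = 1.19e-05). Its relative Rgmb was not detected in the SE and was higher in the NE, with a fold bound of 1.73 (log2 interval -1.177 to -0.705, adjusted p = 2.8e-04 in limma). Rgmb entered the test only through the NE. Without any 1 of the NE arrays, or with detection required on all 6, it was not tested and the count higher in the NE was 1 rather than 2.

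Among the other Smads, 3 of 6 were tested, 2 were called higher in the SE and 0 higher in the NE, with a median of 0.30. Smad6, an inhibitory Smad that is itself induced by BMP signals, gave 5.85, 6.20 and 5.88 in the SE, against 5.31, 5.21 and 4.97 in the NE, and was 1.75-fold higher in the SE (adjusted p = 0.00212). Smad3 gave 11.26, 11.29 and 11.11 in the SE, against 10.87, 11.01 and 10.88 in the NE, and was 1.23-fold higher in the SE (adjusted p = 0.0265). The count of the list was 1 rather than 2 under median centring and without SE array 1, SE array 2, NE array 1 or NE array 3. Smad2, which shares its receptors, differed by -0.03 (-0.23 to 0.17, adjusted p = 0.796). Smad7 and Smad9 were detected on no array and Smad4 was not analysed here.

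Smad partners and regulators had 14 of 17 genes tested, and 8 were called higher in the NE and 0 higher in the SE, with a median of -0.30. Zeb2, a repressor that binds Smads and is known for its role in neural fate, gave 7.16, 6.94 and 6.99 in the SE, against 8.84, 8.70 and 8.38 in the NE, and was 3.05-fold higher in the NE (adjusted p = 5.86e-05). Zfp423, a partner of the BMP-activated Smads, was 1.82-fold higher in the NE (adjusted p = 0.00963). Foxh1, a partner of Smad2 and Smad3, was higher there with a fold bound of 1.35 (log2 interval -0.877 to -0.4, adjusted p = 0.0022 in limma). Trim33 was 1.36-fold higher in the NE (adjusted p = 0.00617), though its 4 tested probes ran from -0.44 to 0.15. The brightest Foxh1 probe was detected on no SE array and passed the filter only through the NE. Without NE array 3 the count of the list was 5 rather than 8.

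Downstream, 10 of 11 genes known to respond to BMP signals were tested, and 8 were called higher in the SE and 0 higher in the NE, with a median of 1.88. The homeobox gene Dlx3 gave 9.19, 9.06 and 9.02 in the SE, against 5.70, 5.83 and 5.87 in the NE, and was 9.79-fold higher in the SE (adjusted p = 2.97e-07). Msx1, another homeobox gene, was 7.37-fold higher (adjusted p = 6.75e-06), Gata3 6.21-fold (adjusted p = 1.23e-05) and Tfap2a 4.74-fold (adjusted p = 2.35e-06). Gata3 was detected on only 1 NE array, so its fold is set against a signal near the floor. The tested probes of Msx1 ran from 1.59 to 2.88 and those of Tfap2a from 0.72 to 2.24. Dlx3, Gata2, Gata3 and Tfap2a are also epidermal genes, so this list and tissue identity are not separate readings, and the count higher in the SE was 5 with detection required on all 6 arrays. Dlx5, among the called genes, was detected on no NE array and entered the test only through the SE. Of the 4 Id genes, which encode inhibitors of helix-loop-helix factors, Id1 was 2.55-fold higher in the SE (adjusted p = 8.31e-05) and Id4 1.35-fold higher (adjusted p = 0.03). Id2 and Id3 did not pass, with differences of -0.14 each (adjusted p = 0.194 and 0.329), and the 3 tested probes of Id2 ran from -0.14 to 0.39.

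**Figure D4:**
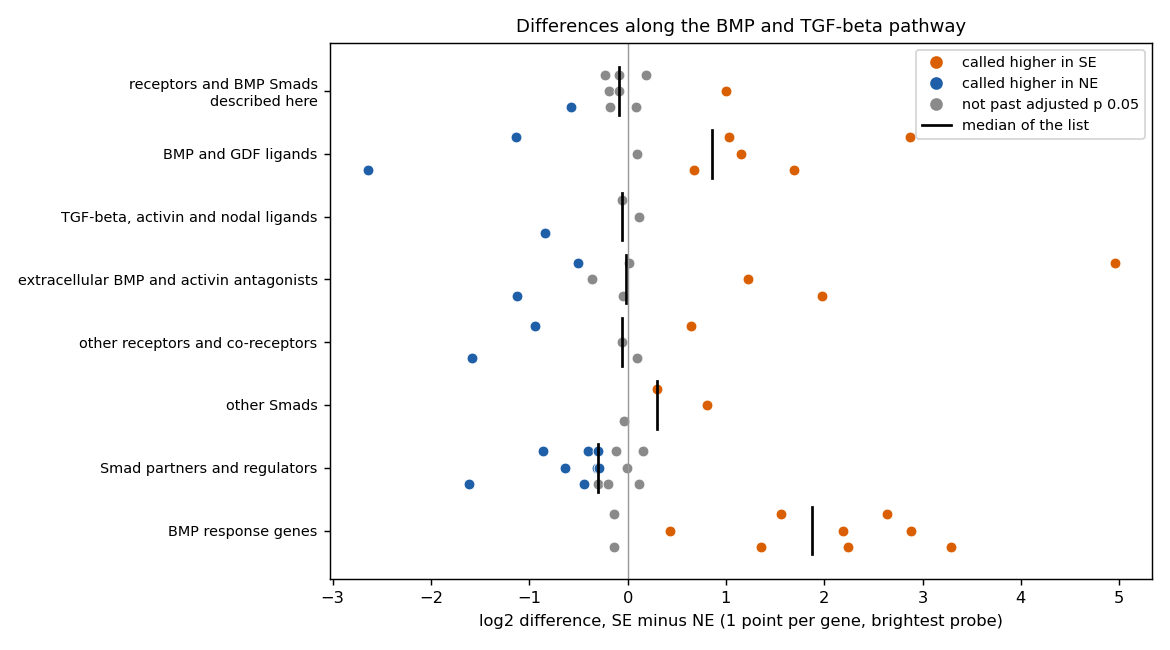
Log2 difference, SE minus NE (horizontal axis), of the receptor and Smad genes and of 7 lists of pathway genes (rows), with 1 point a tested gene at its brightest probe and a black line at each median. Orange points were called higher in the SE, blue points higher in the NE and grey points did not pass; the receptor and Smad genes lie between -0.57 and 1.00, and the ligands between -2.64 and 2.88.

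Markers of other cells were unequal between the tissues. The labels state that cephalic mesenchyme was not included, yet all 8 tested mesenchyme markers of a list of 14 were called higher in the SE, and their summed signal was 2470 to 3240 on the SE arrays and 294 to 463 on the NE arrays. Of these 8, Twist1 (4.35-fold higher in the SE), Prrx1, Pdgfra and Foxc1 were detected on all arrays of both tissues. Lum was detected on 1 NE array and Alx1, Alx4 and Dcn on no NE array. At its brightest probe Alx4 was higher in the SE, with a fold bound of 15.4 and a log2 interval of 3.781 to 4.743. The mesenchyme genes Col1a1, Col1a2, Foxc2 and Postn were detected on no array. All 4 tested blood markers of 6, all of them globin genes, were called higher in the SE, with a summed signal of 4170 to 7820 in the SE and 695 to 2180 in the NE, and Gata1 was detected on no array. None of 4 tested endothelial markers of 8 passed in limma, with 0 at an unadjusted p under 0.05, with a sum of 184 to 426 in the SE and 98.2 to 287 in the NE, and Tie1 was detected on no array. Of 6 endoderm markers 2 were tested, Foxa2 and Apoa1, with a sum of 23.7 to 26.7 in the SE and 55.9 to 85.0 in the NE. Afp and Cldn8 were detected on no array, and Sox17 and Ttr on at most 1. Foxa2, undetected in the SE, was called higher in the NE by at least 1.68-fold (adjusted p = 3.49e-05 in limma), and Apoa1 did not pass. Tissue markers went with the labels, with 7 of 7 tested SE markers (of 8) higher in the SE and 5 of 5 tested NE markers (of 8) higher in the NE. Rax, Lhx2 and Hesx1 were detected on no SE array and Trp63 on no NE array. They passed the detection filter only through 1 tissue, as did Alx1, Alx4, Dcn and Foxa2, so their direction was set by the filter. Epcam and Pax6 were detected on no array, and Sox1 and Cdh2 on at most 2.

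Tgfbr2 is known to be expressed also by mesenchymal and endothelial cells, and its probe 1 followed the order of these markers among the NE arrays. NE array 1 had the highest Tgfbr2 probe 1 signal and NE array 3 the lowest, and the same order held for the mesenchyme sums of 463, 451 and 294, the blood sums of 2180, 1130 and 695 and the endothelial sums of 287, 197 and 98.2 on NE arrays 1, 2 and 3. The SE marker sums on these arrays were 1400, 1660 and 1250, also lowest on NE array 3 but highest on NE array 2. On the SE arrays Tgfbr2 stayed between 6.79 and 6.92 while the mesenchyme sum was 3240, 2470 and 2590, the blood sum 7820, 7240 and 4170 and the endothelial sum 426, 184 and 244 on SE arrays 1, 2 and 3. Bmpr1b probe 2, Tgfbr1 probe 3 and Smad5 probe 2 were likewise highest on NE array 1 and lowest on NE array 3. The order was the reverse on Tgfbr2 probe 2 (4.79, 4.87 and 4.98 on NE arrays 1, 2 and 3) and on Acvr1 probe 1 (7.62, 7.67 and 7.71). Acvr2b, Bmpr1a probe 1, Bmpr2 probe 1, Tgfbr1 probes 1 and 2, Smad1 probes 1 and 2 and Smad5 probe 1 were also highest on NE array 3. The part of other cells in these differences was not tested, and in tissue pools a smaller number of cells of a type cannot be told apart from less RNA in each cell.

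**Figure D5:**
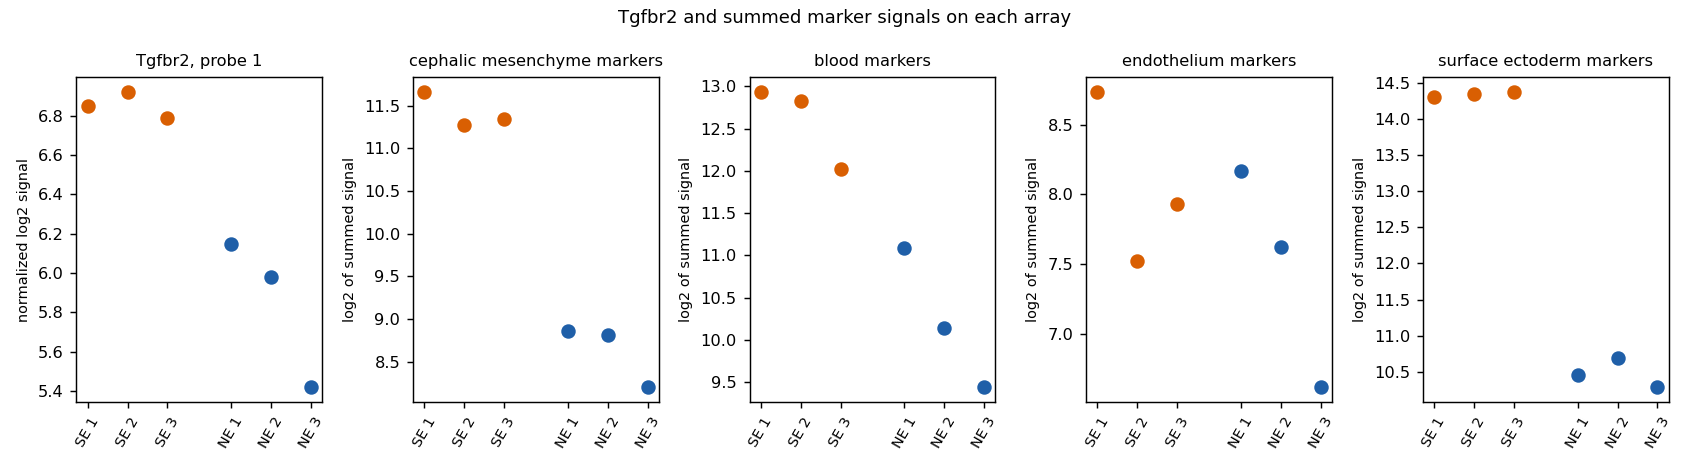
Tgfbr2 probe 1 (normalized log2 signal) beside the log2 of the summed signals of the mesenchyme, blood, endothelium and SE marker genes (vertical axes, each on its own scale) on the 3 SE arrays (orange) and 3 NE arrays (blue). Among the NE arrays, array 1 is highest and array 3 lowest for Tgfbr2 and for the mesenchyme, blood and endothelium sums.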

How the data were processed

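RNA of 3 SE and 3 NE pools was hybridized to single-colour Illumina MouseWG-6 v2 arrays, and the authors exported the scans with BeadStudio, of a version not stated. Their deposited, non-normalized table gives 45281 probes, each with an intensity on a linear scale. It also gives the authors' detection p-value of every probe, a comparison with negative controls. The deposited scaled intensities equal those signals times 1 constant per array (0.966 to 1.07). Between 18916 and 19402 probes were detected per array. Precision is limited by the number of arrays. Arrays correlated at 0.994 or more within a tissue and at 0.962 or less across tissues.

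Signals were corrected and quantile-normalized with neqc (limma 3.58.1, R 4.3.3, offset 16), probes detected (p under 0.05) on fewer than 3 of 6 arrays were left out, and lmFit and eBayes compared SE with NE over 19590 probes. Code was tested on simulated data. Figures used matplotlib 3.10.9 and Python 3.11.15. Groups came from the labels, which do not say that a replicate number marks shared embryos, and arrays of equal number did not deviate together (correlations -0.0371 to -0.0198). The study compared SE with NE within each of its 3 replicates, whereas the main fit here was unpaired. Its SE pools came from more embryos than its NE pools. A probe was named where the platform annotation gives 1 symbol (34885 probes), 18 had several and 10378 none. Every probe of the 10 genes is described, and of each pathway list up to 4 genes with the largest difference among those called, while others were chosen after their values were seen. The members and lists were chosen with earlier results of these data known. P-values measure the spread between pools. Background correction, offset, normalization, detection filter, replicate block, probe choice and left-out arrays were varied.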

Additional observations from a re-analysis of the deposited data

How the results depend on the processing

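Acvr2b and Tgfbr2 probe 1 kept their direction and their call under all 13 alternatives, with adjusted p (limma) between 1.24e-04 and 0.0118 for Acvr2b and between 1.32e-04 and 0.0167 for Tgfbr2. Tgfbr2 probe 1 differed by 0.58 without background correction, 0.68 in the deposited scaled values and 0.70 with offset 50. Of the 17 tested probes, 9 stayed on the same side of the threshold and of 0 under every alternative that tested them, and 4 changed sign under at least 1. None of those 4 was called. The changes of sign were Bmpr1a probe 1 under median centring (-0.019), Tgfbr1 probe 3 (-0.054 to 0.269 with 1 array left out), Tgfbr2 probe 2 (-0.098 to 0.196), Smad1 probe 2 (-0.143 to 0.029) and, among ratios, Bmpr1a over Bmpr1b (-0.258 to 0.031).

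The count of probes called was 1 higher in the SE and 1 higher in the NE. The count higher in the SE was 2 with offset 50 and in the deposited scaled values. It was 0 at the study's thresholds of more than 3-fold and p below 0.05, which also left 0 higher in the NE. Here these were applied to the normalized signals and the unadjusted limma p. The study used BeadStudio values and did not state its test or any adjustment, so the measures are unlike. The count higher in the NE was 2 without background correction, with offset 50 and under median centring, and 3 in the scaled values. These added calls were Bmpr1b probe 2 (adjusted p 0.0441 with offset 50, 0.0266 scaled), Tgfbr1 probe 1 (0.0319 without background correction, 0.0438 with offset 50, 0.0359 scaled) and Smad5 probe 1 (0.0456 under median centring, 0.0479 scaled). With 1 array left out the count higher in the SE ran from 1 to 3 and that higher in the NE stayed at 1. Without NE array 1 the 3 were Tgfbr2 probe 1, Bmpr1b probe 2 (0.74, adjusted p = 0.00744) and Smad5 probe 2 (0.50, adjusted p = 0.0339). Counted by gene at the brightest probe, 2 were higher in the NE without background correction, with offset 50 and under median centring and 3 in the scaled values, and 2 genes were higher in the SE when probes were averaged. With the replicate number as a block (replicate block), which the labels do not tie to shared embryos, the counts were again 1 and 1.

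In the pathway lists, requiring detection on all 6 arrays left 1 other receptor higher in the NE, and in the SE 3 ligands, 1 antagonist and 5 response genes. Without a detection filter 2 other receptors were higher in the SE and 1 antagonist in the NE, and the scaled values also gave 1 antagonist in the NE. Median centring left 1 other Smad higher in the SE and moved the median of all probes by -0.07. With 1 array left out, other receptors higher in the NE ran from 1 to 2, other Smads higher in the SE from 1 to 2, Smad partners higher in the NE from 5 to 8, ligands higher in the SE from 3 to 5 and antagonists higher in the NE from 1 to 2. Detection on 3 or more arrays was still required with 1 array left out. Bmp2 and Bmp8b were therefore untested without any 1 SE array, and Rgmb without any 1 NE array. The cause of the other changes was not tested beyond the smaller number of probes or arrays. Both Acvr2a probes and the dim probes of Tgfbr1, Tgfbr2 and Smad1 lay near the detection limit, about 4.8 on the log2 scale, where signal over background limits what can be read.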
